A study of Saccharomyces cerevisiae x Saccharomyces paradoxus and Saccharomyces cerevisiae and Saccharomyces paradoxus with 10 samples.

Results

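The proteasome is the protease that breaks down ubiquitin-tagged proteins in the yeast cell. Its genes are described here in Saccharomyces cerevisiae, in its close relative S. paradoxus and in the hybrid of both species, as mRNA and as ribosome-protected fragments, or RPF (pieces of message shielded from nuclease by a translating ribosome). The genes were chosen by name and function: subunits of the 20S core, subunits of the base and the lid of the regulatory particle, assembly chaperones, the associated factors BLM10 and ECM29, and the transcription factor gene RPN4. The choice covers 43 names, of which 40 are among the 4637 genes of the deposited table. PRE7, RPT5 and SEM1 were not analysed here. The 40 genes are 7 of the alpha ring, 6 of the beta ring, 9 of the base (the ubiquitin receptors RPN10 and RPN13 are counted there), 8 of the lid, 7 assembly chaperones, 2 associated factors and RPN4. All 40 passed the filter on low values, a mean of at least 3 ppm (parts per 1000000 of coverage), as did 4544 of the 4637 genes.

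The 20S core is a barrel of stacked alpha and beta rings whose peptidase sites face the inside, and the regulatory particle caps it: the base holds the ATPases (RPT genes) that unfold substrates, and the lid holds the deubiquitylase Rpn11. Rpn4 activates proteasome genes through a promoter element called the proteasome-associated control element (PACE), and is itself destroyed by the proteasome, which makes a feedback loop. Chaperones that are not part of the finished particle build the rings and the base.

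The hybrid was a diploid made from BY4176, a S. cerevisiae strain of genotype MAT-alpha lys2 ura::KAN, and CBS432, a S. paradoxus strain of genotype MATa ura::HYG, so the hybrid carried both the KAN and the HYG marker. The parents were BY4176, labelled haploid, and CBS432, labelled diploid for its own mRNA library, although the mixed mRNA sample is described as haploid. A species difference between the parents therefore cannot be told apart from a difference in ploidy, and each species is represented by 1 strain. All cultures came from single colonies, grew at 30 °C in YPD, a rich glucose medium, for at least 16 h in 750 ml, and were taken in log phase at an OD600 of 0.5 to 0.7. Poly(A) mRNA and RPF from 80S monosome fractions were measured in 2 biological replicates of the hybrid each. For the parents, RPF were taken from a mixture of the strains in 2 replicates, 1 of them run on 2 lanes. Parental mRNA was measured as 1 mixture and once for each strain by itself, and which of these is replicate 1 in the table is not given in the sources used here. Together the 10 samples give 16 columns used here: 2 species in 2 replicates of 4 settings (mRNA or RPF, of the hybrid or of the parents).

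The deposited values are summed base coverage over the coding bases at which the 2 species could be compared, with the S. paradoxus columns scaled by the authors so that both species had equal totals. Totals ran from 60.6 to 167 Mb per column. The number of reads behind a value is not known beyond a mark of the authors that all 40 genes reached their minimum of 100 reads. Here each value was divided by its column total and is given as ppm, or as ppm per kb of compared bases where genes are set against each other. Because this is a share of 1 species' coverage, less RNA of a gene and more RNA of all other genes cannot be told apart. The median difference between replicates over all genes was 0.17 for mRNA and 0.35 for RPF of the hybrid, and 0.19 and 0.33 for those of the parents, on the log2 scale, so RPF values carried the larger error. The p-values, from limma with Benjamini-Hochberg adjustment over all 4544 genes, measure the spread between these replicates only, and a gene is called where the adjusted p is under 0.05.

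The PACE sequence, to which Rpn4 binds, was present upstream of most subunit genes. GGTGGCAAA was searched on both strands from 250 bases before to 50 bases after the start codon, in the S. cerevisiae genome (RefSeq, build R64). It was present in 25 of the 30 subunit genes (83.3%): 6 of 7 in the alpha ring, 5 of 6 in the beta ring, 7 of 9 in the base and 7 of 8 in the lid. ECM29 also held it, whereas BLM10, RPN4 and all 7 assembly chaperones (UMP1 and POC4 among them) did not hold these letters in this window. In all, 26 of the 40 members (65.0%) matched, against 72 of all 6001 coding genes (1.2%). The sequence was searched because it is the known element of proteasome genes, so these shares are a description and were not tested. The element lay between 75 and 174 bases before the start codon (median 113), on the strand of the gene in 18 members and on the opposite strand in 8. PRE5, PUP1, RPN10, RPN13 and RPN8 were the subunit genes without an exact match. The windows below show the element in 1 gene of each ring, in 1 of the base, in 2 genes of the lid, and in ECM29. They read 5′ to 3′ on the strand of the gene, with the element, or its reverse complement, in capitals.
SCL1, alpha ring (chrVII:475336-475365, minus strand): cacacaccaaTTTGCCACCgtaaggataga
PRE2, beta ring (chrXVI:732184-732213, plus strand): acagcaaaagGGTGGCAAAacgaagaatag
RPT6, base (chrVII:411351-411380, minus strand): atgcgagcgaGGTGGCAAAagttgtaatat
RPN9, lid (chrIV:1322086-1322115, plus strand): gctttcatccGGTGGCAAAagtaagaacaa
RPN3, lid (chrV:196843-196872, plus strand): acgaaaaacaTTTGCCACCcaagaaagaga
ECM29, associated factor (chrVIII:39943-39972, plus strand): gccttttcttGGTGGCAAAaaaaaggtact
None of these windows overlaps an annotated gene. S. paradoxus promoters were not searched.

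The subunit genes were highly expressed in both species. The median mRNA level of the 30 subunits was between 585 and 786 ppm per kb over the 8 mRNA columns, against 114 to 129 ppm per kb for the median gene. Their median RPF level was between 503 and 644 ppm per kb, against 68.3 to 74.2 ppm per kb. Over the 30 subunits the highest gene stood 2.15 to 3.98 times above the lowest in mRNA and 2.51 to 6.12 times in RPF. Within the 20S core the highest gene stood 1.61 to 2.11 times above the lowest in mRNA. In RPF that ratio ran from 1.61 to 3.99, with PUP1, a beta subunit with trypsin-like activity, near the top and PUP2, an alpha subunit, near the bottom. RPN4 mRNA was at 415 to 557 ppm per kb, close to the lower subunits. UMP1, the chaperone that sits inside the maturing core, had 350 to 1104 ppm per kb of mRNA, within the range of the subunits in every column except S. cerevisiae hybrid replicate 1, where it was below them. Its RPF level was 598 to 1605 ppm per kb, and in the 4 S. paradoxus columns, with 1110 to 1605, it lay above every subunit, the highest of which reached 901 to 979 there. The 6 other chaperones were at 50.2 to 372 ppm per kb of mRNA, and BLM10 and ECM29, the longest coding sequences of the set, at 31.8 to 97.0 ppm per kb. Together the 40 genes took 1.41 to 1.51% of mRNA coverage in the hybrid and 1.65 to 1.80% in the parents, and 1.27 to 1.33% and 1.34 to 1.51% of RPF coverage.

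**Figure D1:**
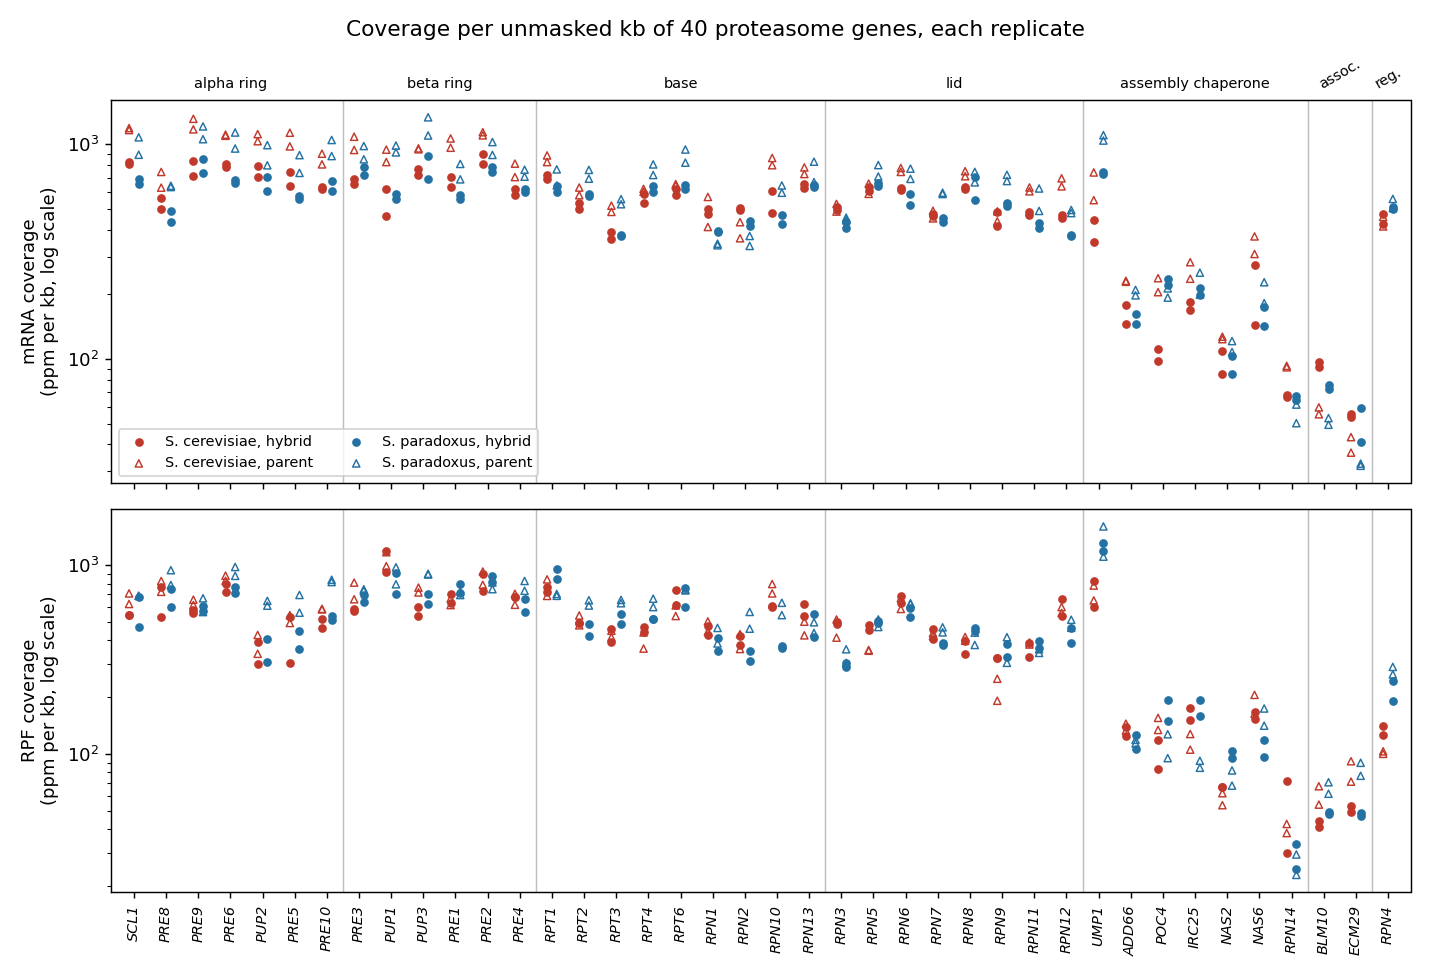
Level of each of the 40 genes in ppm per kb (log axis) in every column, by role, for mRNA and RPF, species and strain. Subunits sit between 336 and 1337 ppm per kb in mRNA, UMP1 lies above all of them in S. paradoxus RPF, and the 6 other chaperones and the 2 associated factors mostly lie below.

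The ratio of RPF to mRNA, a measure of ribosomes per message, was above that of the median gene for most members. In the S. cerevisiae alleles of the hybrid 35 of 40 lay above it, with a median log2 ratio of -0.13 against -0.67 over all genes. In the S. paradoxus alleles 37 of 40 did (median -0.24 against -0.68), in the S. cerevisiae parent 28 (-0.43 against -0.80) and in the S. paradoxus parent 32 (-0.30 against -0.70). All 9 base genes and all 6 beta ring genes were above the all-gene median in each of the 4. PUP1 had the highest log2 ratio of any member in the S. cerevisiae alleles of the hybrid, 0.97, and PUP2 the lowest of the alpha ring in 3 of the 4, from -1.49 to -0.89. RPN4 was below the all-gene median in each of the 4. Its log2 ratio was -1.76 ± 0.11 (SE, 2 replicates) and -1.23 ± 0.18 for the S. cerevisiae and S. paradoxus alleles of the hybrid, and -2.10 ± 0.08 and -0.94 ± 0.10 in the parents. In the S. cerevisiae parent 10.1% of genes had a lower ratio than RPN4, and in the S. paradoxus parent 38.7%. These orderings are descriptions and were not tested.

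**Figure D2:**
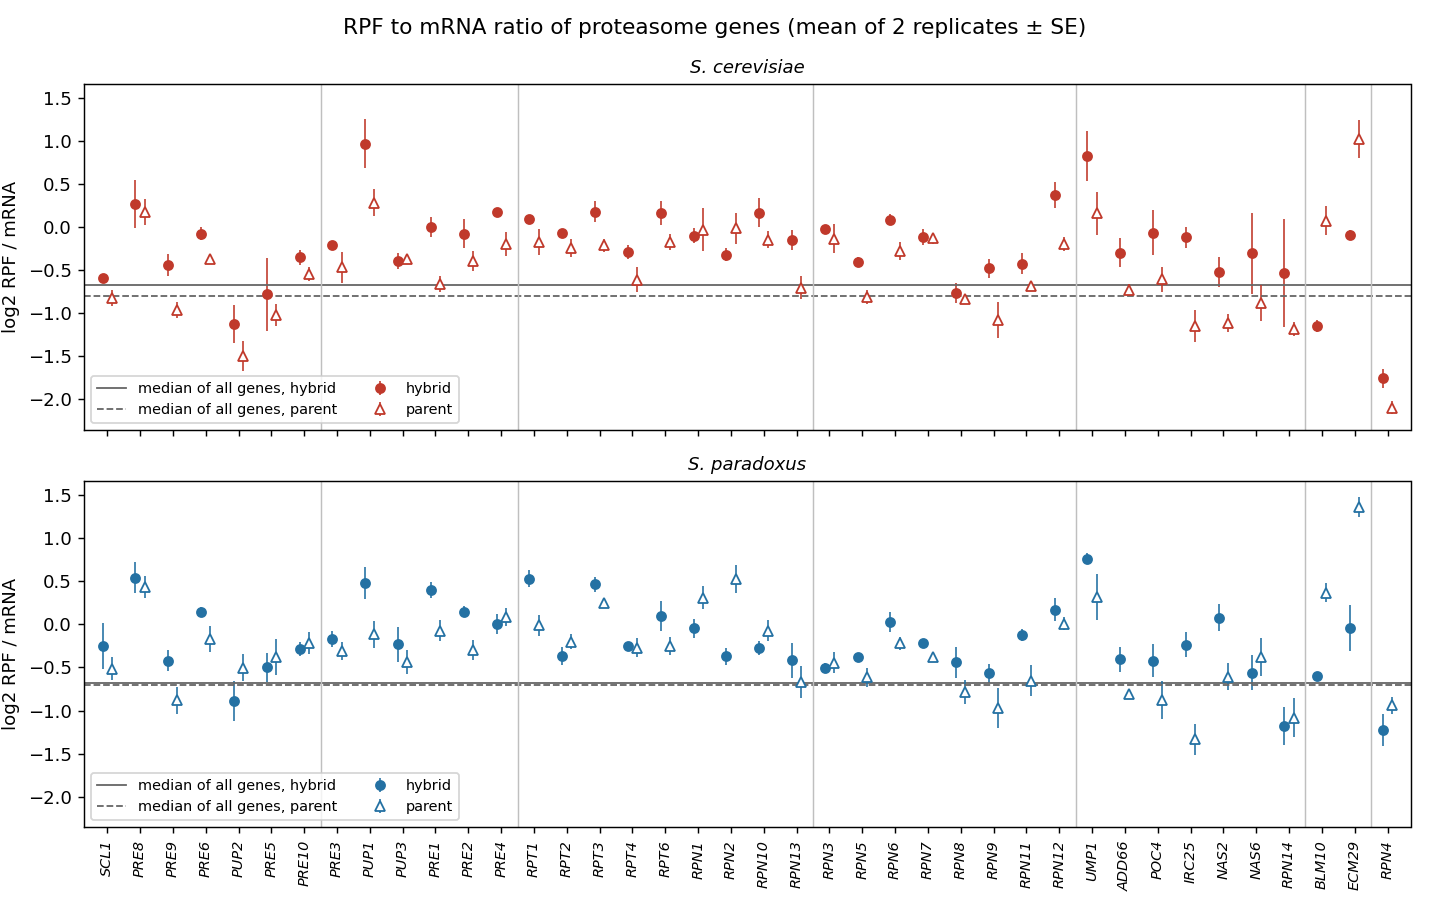
Log2 ratio of RPF to mRNA for the 40 genes, by role, in the hybrid and the parents for each species. Points are means of 2 replicates with their SE, and lines mark the median of all genes, which 28 to 37 of the 40 exceed.

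The hybrid holds both alleles in the same cells, so a difference between its alleles is carried by the alleles themselves (cis), whereas a difference between the parents can also come from the rest of the cell (trans). Differences are given as log2 of S. cerevisiae over S. paradoxus. Between the alleles of the hybrid, 10 of 40 members were called in mRNA (25%, with 8 higher and 2 lower for S. cerevisiae), against 37.4% of all genes (17.8% higher and 19.6% lower). In RPF 4 were called (10%, 2 in each direction) against 11.8% (5.57% higher and 6.23% lower). Between the parents 21 were called in mRNA (52.5%, 12 higher and 9 lower) against 58.5% (30.8% and 27.7%). That split was 3 higher and 8 lower without parental mRNA replicate 1 and 13 and 3 without replicate 2. In parental RPF 9 were called (22.5%, 1 higher and 8 lower) against 35.6% (15.4% and 20.1%). The member medians, 0.06, -0.06, 0.13 and -0.07 in that order, stand beside all-gene medians of -0.02, -0.02, 0.04 and -0.07. With median-of-ratios scaling instead of totals, the split of called members was 8 higher and 10 lower for the parents' mRNA (all genes 1295 and 1399) and 2 and 7 for their RPF (818 and 797). For the hybrid it was 10 and 2 in mRNA (870 and 829) and 2 and 1 in RPF (245 and 257). The differences described below are those of individual genes, foremost RPN4, UMP1 and POC4.

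**Figure D3:**
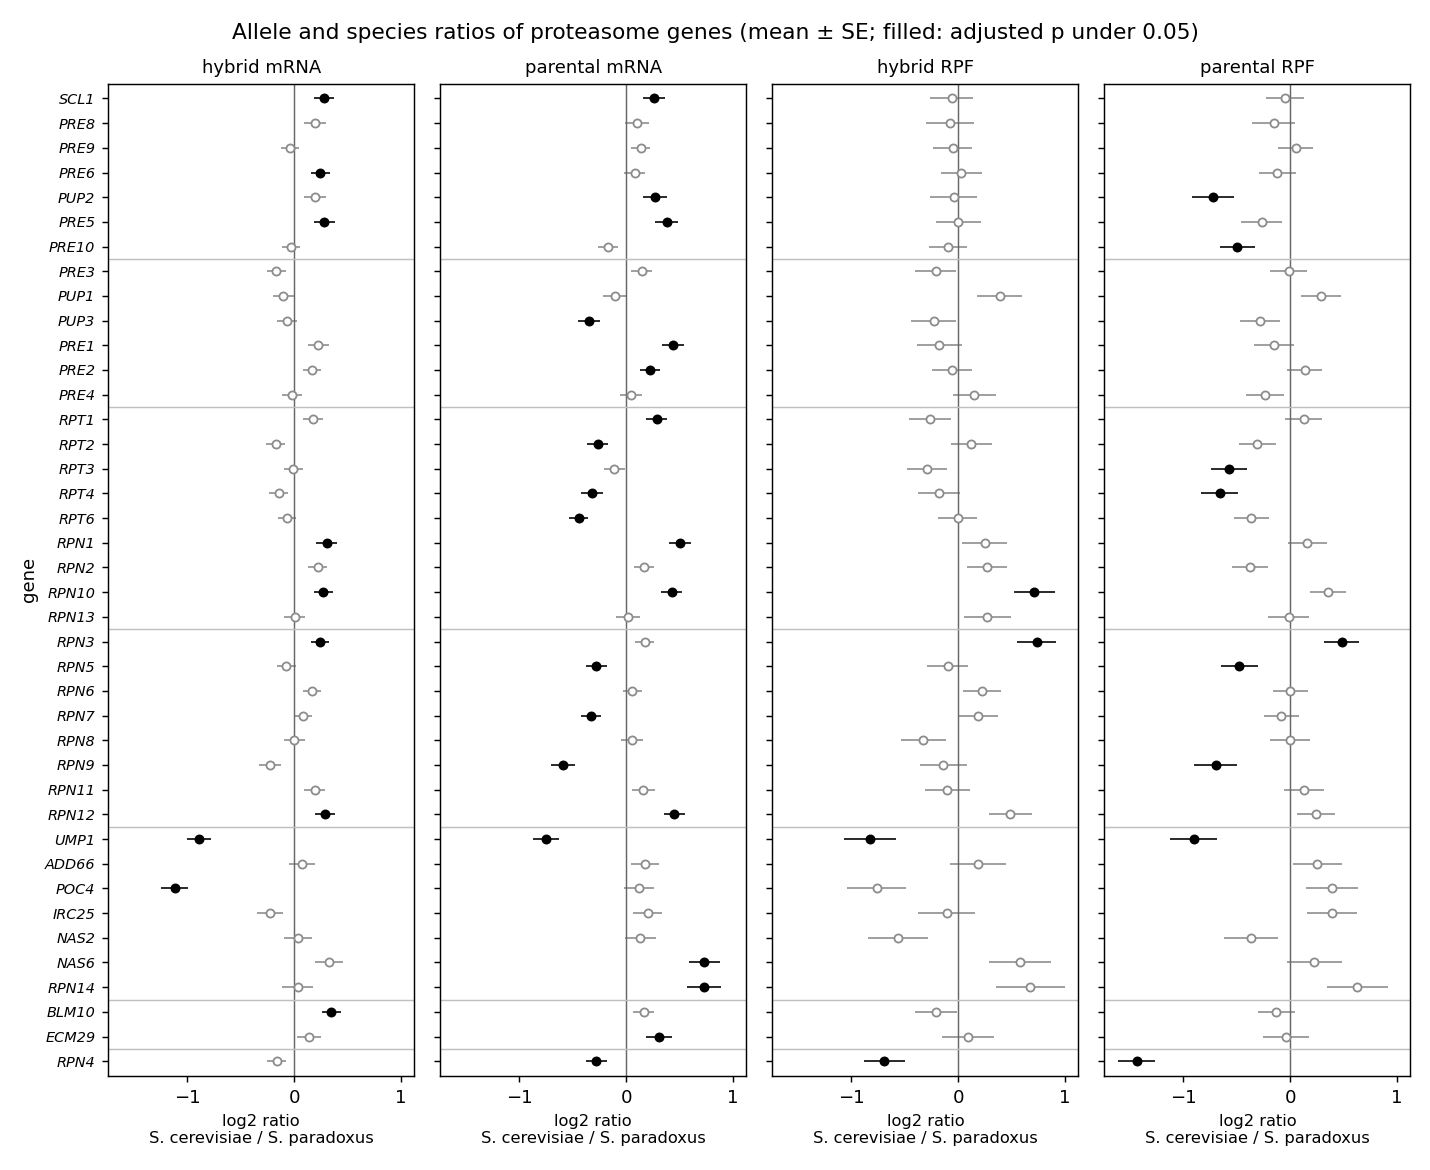
Log2 ratio of S. cerevisiae to S. paradoxus for each of the 40 genes in mRNA and RPF, between the alleles of the hybrid and between the parents. Points are limma estimates with their SE, filled where the adjusted p is under 0.05. The gene farthest from 0 is POC4 in hybrid mRNA, UMP1 in hybrid RPF and parental mRNA, and RPN4 in parental RPF.

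RPN4 was lower in the S. cerevisiae parent, by far more in ribosome occupancy than in mRNA. RPN4 (YDL020C, chromosome IV, 415113 to 416708, minus strand, 1 coding exon) gave 459 and 415 ppm per kb of mRNA in the 2 replicates of the S. cerevisiae parent and 557 and 505 in the S. paradoxus parent. In RPF it gave 103 and 100.2 ppm per kb in the S. cerevisiae parent against 289 and 264 in the S. paradoxus parent. The RPF groups were far apart, with each S. paradoxus value above the S. cerevisiae values, and the mRNA groups were separated by a much smaller gap. The parental RPF difference was -1.44 ± 0.17 (SE, adjusted p = 3.2e-06), a 2.71-fold lower level in S. cerevisiae, and the mRNA difference was -0.28 ± 0.10 (SE, adjusted p = 0.019). The ratio of RPF to mRNA was lower in the S. cerevisiae parent, with a log2 difference of -1.16 ± 0.20 (SE, adjusted p = 0.0014). RPN4 and PUP2 were the members called in that ratio, 2 of 40, both lower, against 6.34% of all genes called and 3.9% lower. Median-of-ratios scaling raised the all-gene median of this ratio by 0.13 and changed neither call, while the split over all genes went from 111 higher and 177 lower to 182 and 110. The RPN4 RPF difference stayed between -1.48 and -1.39 and the ratio difference between -1.20 and -1.11 when each library was left out, and both stayed called. The RPN4 mRNA call was lost without either parental mRNA replicate. It was also lost with a spread shared by all settings and no weights (adjusted p = 0.12 by limma). With the trend over coding length removed, its adjusted p by limma was 0.059.

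Between the hybrid's alleles RPN4 differed in the same direction in RPF. RPF values were 126 and 141 ppm per kb for the S. cerevisiae allele and 244 and 189.8 for the S. paradoxus allele, without overlap. The RPF difference was -0.69 ± 0.19 (SE, adjusted p = 0.025), and the call was lost without either hybrid RPF replicate. The mRNA values, 428 and 475 against 499 and 509 ppm per kb, differed by -0.16 ± 0.09 (SE, adjusted p = 0.16), which was not called. The ratio of RPF to mRNA differed by -0.53 ± 0.21 (SE, adjusted p = 0.23) and was not called either. No member was called in the hybrid's ratio of RPF to mRNA by limma, against 1.41% of all genes, and 5 of the 40 had an unadjusted p under 0.05. The change of the RPN4 RPF difference from hybrid to parents was -0.75 ± 0.26 (SE, adjusted p = 0.069), which was not called. It was called with the replicate block (adjusted p = 0.043), a pairing that the labels do not give, and with a shared spread and no weights (0.017). Without either parental mRNA replicate, which left the value itself unchanged, it was called as well. When each library was left out, the change ran from -1.01 to -0.49. In the authors' deposited table RPN4 is assigned to S. paradoxus as the higher species in mRNA cis, translational cis, mRNA trans and translational trans.

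UMP1, the core maturation chaperone, was lower in S. cerevisiae in mRNA and in RPF, in the hybrid and between the parents. UMP1 (YBR173C, chromosome II, 581726 to 582172, minus strand) gave 350.0 and 446 ppm per kb of mRNA from the S. cerevisiae allele and 726 and 744 from the S. paradoxus allele of the hybrid. In the parents the mRNA values were 549.6 and 739.8 against 1042 and 1104 ppm per kb. In neither strain did the species overlap. The mRNA difference was -0.89 ± 0.11 (SE, adjusted p = 5.8e-06) in the hybrid, 1.86-fold lower in S. cerevisiae, and -0.75 ± 0.12 (SE, adjusted p = 4.1e-05) in the parents. It stayed between -1.05 and -0.74 in the hybrid and between -0.92 and -0.58 in the parents when each library was left out. The change from hybrid to parents was 0.14 ± 0.17 (SE, adjusted p = 0.54). RPF followed, with 598 and 826 against 1194 and 1307 ppm per kb in the hybrid and 651 and 781 against 1605 and 1110 in the parents. S. cerevisiae was again the lower species in every replicate. The RPF difference was -0.83 ± 0.24 (SE, adjusted p = 0.032) in the hybrid and -0.90 ± 0.22 (SE, adjusted p = 0.0033) in the parents. The hybrid RPF call was lost without either hybrid RPF replicate, and the parental one without replicate 1 of parental RPF (-0.51, adjusted p = 0.22). The ratio of RPF to mRNA differed by 0.06 ± 0.27 in the hybrid and -0.15 ± 0.25 in the parents, neither called.

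POC4 differed between the alleles of the hybrid and not detectably between the parents. POC4 (YPL144W, chromosome XVI, 280480 to 280926, plus strand) encodes a chaperone that acts with Irc25 in building the alpha ring. Its S. cerevisiae allele gave 111 and 98.3 ppm per kb of mRNA in the hybrid and its S. paradoxus allele 221 and 235. The parents gave 205 and 238 and 193 and 213 ppm per kb. The hybrid's S. cerevisiae allele thus stood below the other 3, whose values overlapped. The mRNA difference was -1.12 ± 0.13 (SE, adjusted p = 1.7e-06) in the hybrid, 2.17-fold lower in S. cerevisiae, and 0.12 ± 0.14 (SE, adjusted p = 0.48) between the parents. The difference of the parents minus that of the hybrid was 1.24 ± 0.19 (SE, adjusted p = 5e-05), and it stayed between 1.11 and 1.37 without each library. In RPF the S. cerevisiae allele gave 119 and 83.8 ppm per kb against 194 and 149 in the hybrid, and the S. cerevisiae parent 155 and 134 against 127 and 95.1. S. cerevisiae was thus the lower species in the hybrid and the higher one in the parents in every replicate. Neither the RPF difference in the hybrid, -0.76 ± 0.28 (SE, adjusted p = 0.081), nor its change in the parents, 1.15 ± 0.37 (SE, adjusted p = 0.051), was called. The authors' deposited table assigns POC4 to S. paradoxus in mRNA cis and to S. cerevisiae in translational cis, mRNA trans and translational trans.

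**Figure D4:**
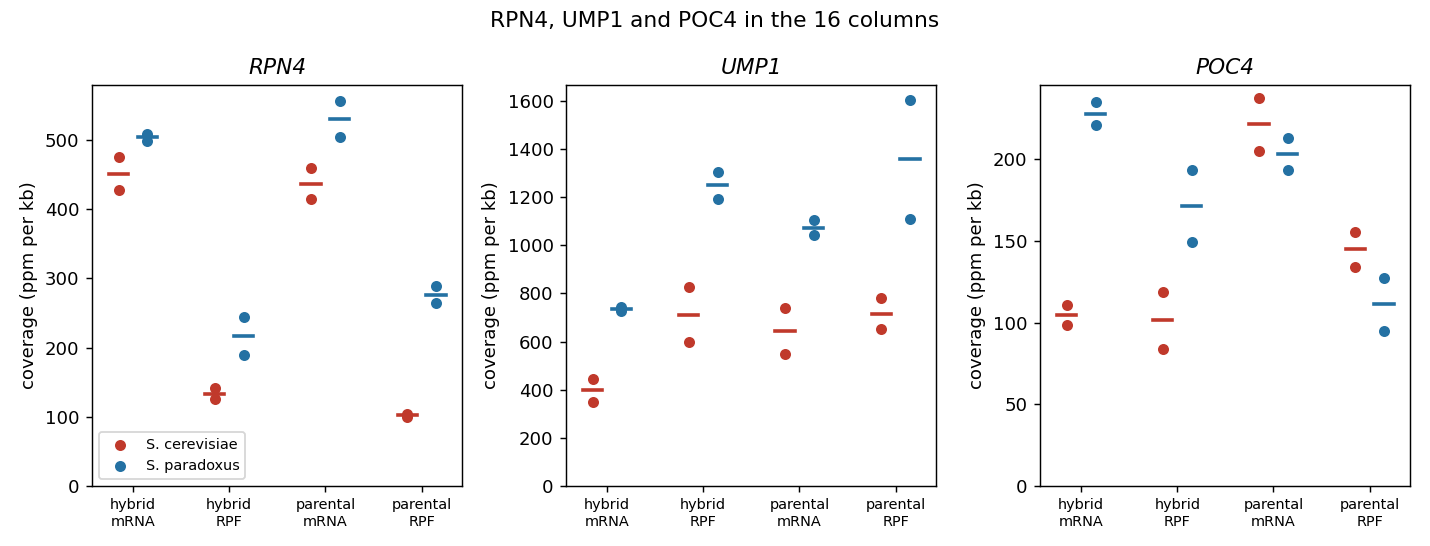
Levels of RPN4, UMP1 and POC4 in ppm per kb in each replicate (points) with the mean of 2 replicates (bars), for mRNA and RPF in the hybrid and the parents. RPN4 differs between species mainly in RPF, UMP1 in both measures and strains, and POC4 mRNA in the hybrid.

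Among the other chaperones, 2 of the base-assembly chaperones were higher in the S. cerevisiae parent. NAS6 mRNA was 308 and 372 ppm per kb in the S. cerevisiae parent and 182 and 228 in the S. paradoxus parent, a difference of 0.73 ± 0.15 (SE, adjusted p = 0.00029). In the hybrid its alleles overlapped, at 274 and 143 against 175 and 143 ppm per kb, and the difference was not called. RPN14 mRNA was 91.4 and 92.8 against 50.2 and 61.3 ppm per kb in the parents, a difference of 0.73 ± 0.16 (SE, adjusted p = 0.00081), and 66.4 and 68.0 against 64.3 and 67.0 in the hybrid. The RPN14 difference of the parents exceeded that of the hybrid by 0.69 ± 0.22 (SE, adjusted p = 0.019). Both RPN14 calls were lost without parental mRNA replicate 1 (0.60 for the parents and 0.56 for the change). The call of the change was also lost without either hybrid mRNA replicate (0.71 and 0.68). With a spread shared by all settings and no weights it was lost as well (adjusted p = 0.21 by limma). ADD66, IRC25 and NAS2 were not called between species in mRNA or RPF, in the hybrid or in the parents. ADD66 was compared over 610 bases in S. cerevisiae and 703 in S. paradoxus, which the fit took into account.

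In the 20S core, parental mRNA calls depended on single libraries: each of those named here was lost without parental mRNA replicate 1 or without replicate 2. The alpha ring genes SCL1, PRE5 and PRE6 were higher in the S. cerevisiae alleles of the hybrid, by 0.28, 0.28 and 0.25 on the log2 scale of mRNA, and no beta ring gene was called there. In the parents SCL1, PUP2 and PRE5 of the alpha ring and PRE1 and PRE2 of the beta ring were higher in S. cerevisiae mRNA, by 0.23 to 0.44. PUP3 of the beta ring was lower, with a log2 difference of -0.35 ± 0.11 (SE, adjusted p = 0.009). PUP2 went in opposite directions in mRNA and RPF. Its parental mRNA was 1035 and 1116 ppm per kb in S. cerevisiae and 799 and 992 in S. paradoxus, while its parental RPF was 427 and 339.5 against 611 and 647. Neither pair of groups overlapped. The RPF difference was -0.72 ± 0.20 (SE, adjusted p = 0.0077) and the difference in the ratio of RPF to mRNA -0.99 ± 0.23 (SE, adjusted p = 0.012). Both calls rest on parental RPF replicate 2, since without it the RPF difference was -0.51 (adjusted p = 0.20) and the ratio difference -0.79 (adjusted p = 0.20). PRE10 was the other core gene called in parental RPF, lower in S. cerevisiae with a log2 difference of -0.50 ± 0.16 (SE, adjusted p = 0.022).

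In the base, 3 genes were higher and 3 lower in the mRNA of the S. cerevisiae parent, and of these 6 calls those of RPN10 and RPT6 held without any 1 library. The ATPase genes RPT2, RPT4 and RPT6 were the lower ones, with log2 differences of -0.26, -0.32 and -0.44, and RPT1, another ATPase gene, was higher by 0.29. RPT3 was not called in mRNA. RPN1, the scaffold that docks ubiquitin shuttles, was higher by 0.50 ± 0.11 (SE, adjusted p = 0.00046), and RPN10, a ubiquitin receptor, by 0.43 ± 0.10 (SE, adjusted p = 0.00096). RPN10 was also higher in the S. cerevisiae allele of the hybrid, where RPF values were 607 and 603 against 375 and 362 ppm per kb. These groups did not overlap, and the differences were 0.71 ± 0.19 (SE, adjusted p = 0.02) in RPF and 0.27 ± 0.09 (SE, adjusted p = 0.021) in mRNA. RPT3 and RPT4 were lower in the RPF of the S. cerevisiae parent, with log2 differences of -0.57 and -0.66, the RPT4 call being lost without parental RPF replicate 1 (-0.45, adjusted p = 0.19).

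In the lid, RPN9 and RPN12 had the largest called mRNA differences between the parents, and RPN3 differed in RPF. RPN9, a structural subunit of the lid, gave 438 and 487 ppm per kb of mRNA in the S. cerevisiae parent and 675 and 721 in the S. paradoxus parent. Its RPF values were 250.4 and 191 against 304 and 416 ppm per kb. S. cerevisiae was lower in every replicate, and the differences were -0.59 ± 0.11 (SE, adjusted p = 0.00018) in mRNA and -0.70 ± 0.20 (SE, adjusted p = 0.01) in RPF, the latter lost without parental RPF replicate 2 (-0.28, adjusted p = 0.45). RPN12, a subunit needed to complete the lid, was higher in the S. cerevisiae parent, by 0.45 ± 0.10 (SE, adjusted p = 0.00079). RPN5 and RPN7, lid subunits as well, were lower there in mRNA, with log2 differences of -0.28 and -0.33. RPN3 RPF was 499 and 491 ppm per kb from the S. cerevisiae allele of the hybrid against 305 and 291 from the other, and 413 and 516 against 304 and 359 in the parents. S. cerevisiae was higher in both strains, by 0.73 ± 0.18 (SE, adjusted p = 0.013) and 0.48 ± 0.16 (SE, adjusted p = 0.027). The parental RPN3 call was lost without either parental RPF replicate, as were those of PRE10, RPT3 and RPN5, and all 4 RPF calls between the hybrid's alleles were lost without either hybrid RPF replicate. The 8 calls of higher mRNA in the S. cerevisiae alleles of the hybrid were also lost without either hybrid mRNA replicate, including that of BLM10, a core activator whose mRNA was 91.5 and 97.0 against 72.3 and 75.7 ppm per kb and whose adjusted p was 0.0050 with both replicates and 0.062 or 0.094 without 1 of them. By contrast the parental mRNA calls of UMP1, NAS6, RPN9, RPN10, RPN12 and RPT6 held without any 1 library. The other 9 calls of higher parental mRNA (RPN1, RPN14, RPT1, SCL1, PUP2, PRE1, PRE2, PRE5 and ECM29) were lost without parental mRNA replicate 1, and the other 6 of lower mRNA (PUP3, RPT2, RPT4, RPN5, RPN7 and RPN4) without replicate 2. RPN4 lost its call without replicate 1 as well.

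The species difference in mRNA changed between hybrid and parents for 4 of the 40 genes (10%), 2 in each direction, against 36% of all genes (19.2% higher and 16.8% lower). Besides POC4 and RPN14 these were RPT6, -0.38 ± 0.12 (SE, adjusted p = 0.024), and RPN7, -0.41 ± 0.12 (SE, adjusted p = 0.014). For both, the S. cerevisiae share was lower in the parents than in the hybrid. With median-of-ratios scaling the split was 2 higher and 3 lower. The RPT6 call was lost without any of hybrid mRNA replicate 1, hybrid mRNA replicate 2 or parental mRNA replicate 2 (adjusted p = 0.077, 0.11 and 0.14), and the RPN7 call without hybrid or parental mRNA replicate 2 (adjusted p = 0.098 and 0.084). In RPF limma called none of the 40, against 10.9% of all genes, and 4 had an unadjusted p under 0.05. The differences between hybrid and parents described next share all of these columns.

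Most subunit mRNAs took a smaller share of mRNA coverage in the hybrid than in the parent of the same species. Among S. cerevisiae values 24 of 40 members were lower in the hybrid (60%) and 3 higher, against 29.5% lower and 20.8% higher over all genes. Among S. paradoxus values 23 were lower (57.5%) and 2 higher, against 16.2% and 13.9%. The S. paradoxus lower count was 14 without hybrid mRNA replicate 1, 10 without hybrid mRNA replicate 2 and 11 without parental mRNA replicate 2, and the S. cerevisiae one 15 without hybrid mRNA replicate 2. All 7 alpha ring genes were lower in both species. In the beta ring 6 of 6 were lower among S. cerevisiae values and 4 of 6 among S. paradoxus values, in the base 3 and 5 of 9, in the lid 3 and 5 of 8, and of the chaperones 5 and 2 of 7. PUP1 mRNA, for example, was 618 and 461 ppm per kb in the hybrid against 827 and 945 in the S. cerevisiae parent, and 587 and 558 against 918 and 987 for S. paradoxus. No hybrid value reached a parental one, and the difference was -0.73 ± 0.14 (SE, adjusted p = 0.00021) and -0.73 ± 0.12 (SE, adjusted p = 0.0002). BLM10 and ECM29 were higher in the hybrid in both species. ECM29 mRNA was 53.5 and 55.3 ppm per kb against 43.2 and 36.6 for S. cerevisiae, a difference of 0.45 ± 0.13 (SE, adjusted p = 0.0063). For S. paradoxus it was 41.0 and 59.2 against 31.8 and 32.5, a difference of 0.62 ± 0.15 (SE, adjusted p = 0.0044). The S. cerevisiae ECM29 call was lost without parental mRNA replicate 2, and the S. paradoxus one without hybrid mRNA replicate 2 (0.35). RPN4 mRNA was not called, with 0.05 ± 0.12 and -0.07 ± 0.12. With median-of-ratios scaling, which raised the all-gene median of the S. cerevisiae difference by 0.11 (from -0.13), 3 were higher and 17 lower there and 3 and 19 for S. paradoxus, while the split over all genes for S. cerevisiae went from 945 higher and 1340 lower to 1197 and 1007, and for S. paradoxus from 633 and 734 to 720 and 603.

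The hybrid mRNA difference moved with coding length, which separates short core subunits from the long BLM10 and ECM29. Across 4313 genes with an annotated length, its correlation with log2 length was r = 0.42 (Spearman rho 0.51) for S. cerevisiae and r = 0.39 (rho 0.47) for S. paradoxus. Across the 40 members it was r = 0.87 (rho 0.78) and r = 0.69 (rho 0.44). These are descriptions over genes of the same libraries. Among genes of up to 843 bases, which include 20 of the members, the median difference was -0.45 over all genes and -0.54 over the members in S. cerevisiae, and in S. paradoxus -0.24 and -0.43. Among genes of 1926 bases or more, with 4 members, it was 0.32 and 0.39 in S. cerevisiae, and in S. paradoxus 0.27 and 0.40. With the length trend removed, an alternative chosen after seeing the data, 23 members were lower and none higher for S. cerevisiae, against 35.2% of all genes lower, and 9 were lower and 1 higher for S. paradoxus, against 13.3% lower. BLM10 then turned to -0.42 and -0.31 and ECM29 of S. paradoxus to -0.15. Whether the length relation comes from the cells or from the libraries was not tested.

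**Figure D5:**
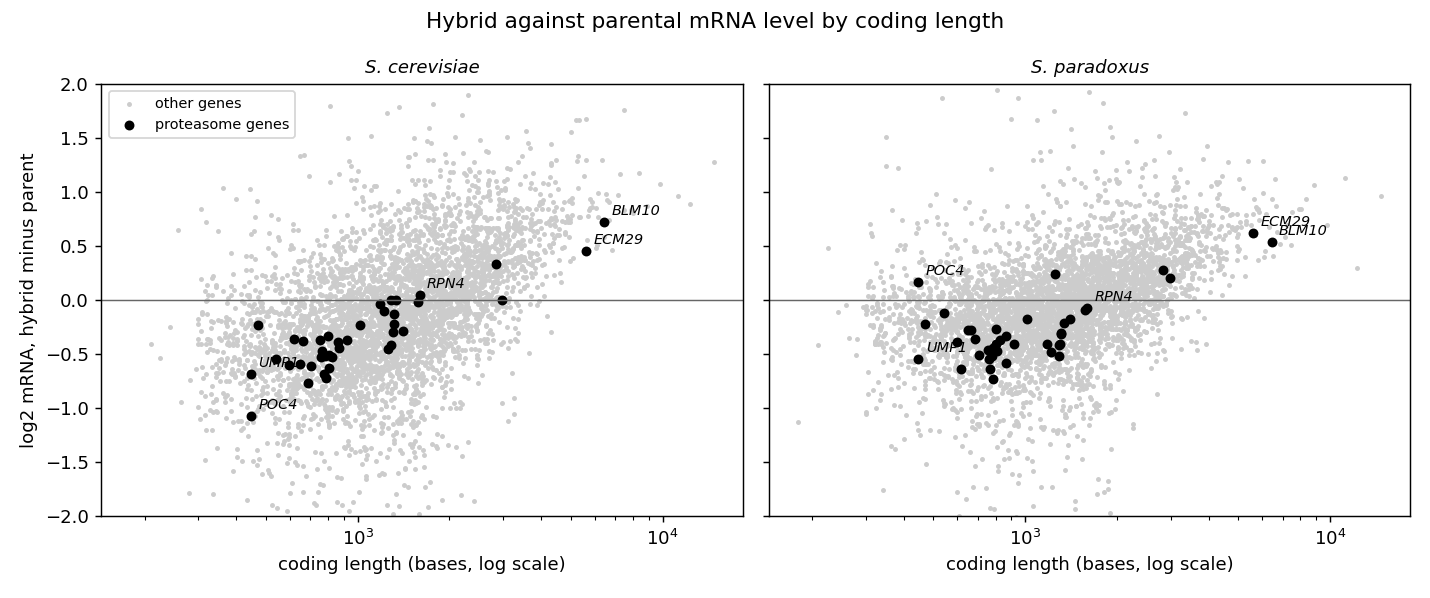
Hybrid minus parent difference in mRNA (log2, vertical axis limited to 2 in either direction) against coding length in bases (log axis) for all genes with an annotated length and for the members, in S. cerevisiae and S. paradoxus. Members follow the rise with length of all genes, and 72 and 30 other genes lie outside the axis.

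In RPF few members were called between hybrid and parent. Among S. cerevisiae values ECM29 alone was called, lower in the hybrid at -0.66 ± 0.22 (SE, adjusted p = 0.039), against 9.09% of all genes lower. Among S. paradoxus values 5 were lower (PUP2, ECM29, RPN10, PRE10 and RPN2) and IRC25 was higher, against 7.86% lower and 4.64% higher. ECM29 RPF was 52.9 and 49.2 ppm per kb in the hybrid against 91.6 and 71.4 in the S. cerevisiae parent, and 48.7 and 47.0 against 76.7 and 89.9 for S. paradoxus. ECM29 thus stood lower in RPF and higher in mRNA in the hybrid than in the parent of the same species, without overlap, and its log2 ratio of RPF to mRNA was -0.09 and -0.04 in the hybrid and 1.02 and 1.37 in the parents. BLM10 had the same pattern in that ratio, with -1.15 and -0.59 against 0.07 and 0.37. Both have the longest coding sequences of the 40, and the ratio's move between hybrid and parents was not tested. IRC25, the partner of Poc4, gave 159 and 192 ppm per kb of S. paradoxus RPF in the hybrid and 92.1 and 84.6 in the parent, a difference of 0.98 ± 0.26 (SE, adjusted p = 0.02). Each of these 7 calls was lost without at least 1 of the RPF libraries. The S. paradoxus RPF difference fell with log2 coding length, with r = -0.15 over all genes and -0.35 over the members. For S. cerevisiae these were 0.03 and -0.12. With the length trend removed, the S. paradoxus ECM29 call was lost (-0.61, adjusted p = 0.085 by limma), and the other RPF calls named here stayed.

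Genes that work with the proteasome were also compared, in 2 lists read against the shares of all genes. Unlike the members, single genes of these lists were not checked with each library left out. Of 23 tested genes (24 listed) that conjugate ubiquitin, carry substrates or bind the proteasome, 1 was higher and 5 lower in S. cerevisiae among the hybrid's alleles in mRNA, against 17.8% and 19.6% of all genes. Between the parents 5 were higher and 4 lower, against 30.8% and 27.7%. In RPF the counts were 1 and 1 in the hybrid (5.57% and 6.23% of all genes) and 1 and 5 in the parents (15.4% and 20.1%). CIC1, reported as a proteasome-associated and ribosome-assembly factor, was lower in the S. cerevisiae parent, with log2 differences of -1.22 ± 0.10 (SE, adjusted p = 3.8e-09) in mRNA and -1.21 ± 0.17 (SE, adjusted p = 2.3e-05) in RPF. RSP5, a ubiquitin ligase, was lower in mRNA, at -0.87 ± 0.10 (SE, adjusted p = 6.2e-07), and not called in RPF, at 0.12, while its ratio of RPF to mRNA was higher, by 0.99 ± 0.20 (SE, adjusted p = 0.0067). UBA1, the ubiquitin-activating enzyme, was higher in mRNA and RPF, by 0.47 ± 0.09 (SE, adjusted p = 0.00028) and 1.04 ± 0.16 (SE, adjusted p = 6.5e-05). TMA17, a base-assembly factor, was lower in parental RPF, at -0.90 ± 0.28 (SE, adjusted p = 0.018). Among 8 genes that act on RPN4 or on the turnover of its product, none was higher and 2 lower between the hybrid's alleles in mRNA, 1 higher and 3 lower between the parents, and none higher and 3 lower in parental RPF. YAP1, a stress transcription factor with a site in the RPN4 promoter, was lower in the S. cerevisiae parent, at -0.50 ± 0.10 (SE, adjusted p = 0.00045) in mRNA and -1.01 ± 0.18 (SE, adjusted p = 0.00033) in RPF. PDR3, a drug-resistance regulator, was lower too, at -0.87 ± 0.16 (SE, adjusted p = 0.00012) and -0.91 ± 0.28 (SE, adjusted p = 0.016). Between hybrid and parent, the first list had 3 higher and 9 lower mRNAs of 23 for S. cerevisiae, against 20.8% and 29.5% of all genes. For S. paradoxus it had 3 and 8, against 13.9% and 16.2%. The list around RPN4 had 4 and 3 of 8 higher and none lower, against 20.8% and 13.9% of all genes higher. This mRNA comparison moved with coding length, and the lengths of the listed genes were not taken into account in these counts. Medians of the list were 0.51 for S. cerevisiae and 0.31 for S. paradoxus, beside 0.32 and 0.27 over all genes of 1926 bases or more. In RPF none of the genes around RPN4 was called in either species. UBR2, the ligase that marks Rpn4 for destruction, had more mRNA in the hybrid than in the parents, by 1.30 ± 0.23 (SE, adjusted p = 0.00013) for S. cerevisiae and 0.93 ± 0.25 (SE, adjusted p = 0.0094) for S. paradoxus, in the comparison that moved with coding length. Its RPF differences, -0.53 and -0.78, were not called.

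By their medians, the subunit genes differed less between the species in coding sequence than the chaperones did. Their ranges overlapped, at 4.97 to 10.5% of bases for the subunits and 7.17 to 15.5% for the chaperones. According to the deposited table a median of 7.90% of coding bases differed between the species over the 30 subunits, 10.3% over the 7 chaperones and 10.1% over all genes. POC4 stood highest of the 40 at 15.5%. The ratio of amino acid changing to silent substitution rates (omega) had a median of 0.0195 over the subunits, 0.0922 over the chaperones and 0.0708 over all genes. Promoters did not show this contrast, with 21.4% of bases differing for the subunits and 20.5% for all genes. None of the 40 carried the authors' mark for ploidy or mating-type genes, and RPN6 and RPN4 were the members marked as having a TATA box. These properties were not tested against the expression differences.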

How the data were processed

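Genes were followed in 10 samples of yeast, as poly(A) mRNA and as ribosome-protected fragments (RPF). Per the submitters' processing notes the tools were CASAVA 1.8.2 and Bowtie 0.12. The genome builds are not given in the sources used here. In the deposited files the signal is base coverage, summed over a gene's compared coding bases. The authors multiplied S. paradoxus coverage by 1 factor in each replicate to give both species equal totals, per the file's description, which makes a difference between species relative to all genes. The authors' own p-values and assignments are used only where their deposited table is named. Percentages of differing bases were also deposited by the authors. Of the per-sample columns 24 were not used, and 3 emptied lines were left out.

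Each column was divided by its total (ppm). Values were tested as log2(ppm + 0.5), a scale that understates changes of low genes, for genes with a mean of at least 3 ppm, with an offset for unequal compared bases. A test on counts had been foreseen should the files hold counts; as they hold coverage, limma 3.58.1 (R 4.3.3) was used with 1 weight per setting (2.13 for hybrid mRNA, 0.457 for hybrid RPF, 1.79 for parental mRNA and 0.574 for parental RPF), a moderated spread with an intensity trend and Benjamini-Hochberg adjustment over 4544 genes. The comparisons are S. cerevisiae against S. paradoxus in the hybrid and in the parents, their difference, the ratio of RPF to mRNA, and hybrid against parent. Counts of reads are unknown, so no counting interval is given.

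Members and lists were chosen with earlier results of these data known. Genes named from each comparison are up to 10 called members with the largest absolute log2 value and the same sign in both replicates, and RPN4; further members are named as examples of their role. Labels call the hybrid replicates biological; whether the parental ones came from separate cultures is not stated. Alternatives were another pseudocount, no filter, median-of-ratios scaling, a spread shared without weights, strains compared alone, no offset, a replicate block, each library left out and, chosen after seeing the data, removal of the length trend. Sequences and coding lengths come from RefSeq's R64 genome, and Python 3.11.15 and matplotlib 3.10.9 drew the figures.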

Additional observations from a re-analysis of the deposited data

Results flagged for a closer look

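In 4 genes the species difference in mRNA itself differed between the parents and the hybrid by an interaction test in limma (log2 difference of the parents minus that of the hybrid, adjusted p under 0.05 over all genes). For POC4 it was 1.24, for RPN14 0.69, for RPT6 -0.38 and for RPN7 -0.41. The POC4 result held without any 1 library. The other 3 did not. The parents differ in ploidy, by their labels, and the hybrid is diploid, so ploidy and the hybrid state cannot be told apart in these values.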

How the results depend on the processing

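Named values numbered 75, of which 67 were called, and 40 of these lost the call without 1 library while 22 kept it under every alternative. The number of called members under each left-out library ran from 2 to 12 (hybrid mRNA), 0 to 4 (hybrid RPF), 0 to 0 (hybrid ratio of RPF to mRNA), 11 to 21 (parental mRNA), 3 to 9 (parental RPF), 1 to 3 (parental ratio), 1 to 5 (parents minus hybrid, mRNA), 0 to 1 (parents minus hybrid, RPF), 17 to 27 and 11 to 25 (hybrid minus parent in mRNA, S. cerevisiae and S. paradoxus) and 0 to 1 and 0 to 7 (the same in RPF). Over all genes the calls ran in the same order from 792 to 1767, 125 to 550, 12 to 174, 1886 to 2697, 794 to 1673, 70 to 312, 1047 to 1699, 204 to 563, 1540 to 2322, 742 to 1397, 313 to 836 and 199 to 595. Members above the all-gene ratio of RPF to mRNA then numbered 34 to 36 and 27 to 30 for S. cerevisiae in hybrid and parent, and 34 to 37 and 30 to 32 for S. paradoxus. Where a setting was left with 1 sample, that sample was assumed to vary like the rest.

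With a spread shared by all settings and no weights, called members were 2 (hybrid mRNA), 8 (hybrid RPF), 10 (parental mRNA), 1 and 3 (parents minus hybrid, mRNA and RPF), 16 and 4 (hybrid minus parent, S. cerevisiae mRNA and RPF) and 14 (S. paradoxus mRNA). Over all genes this spread gave 573 against 1700 for hybrid mRNA, 1175 against 536 for hybrid RPF, 20 against 64 for the hybrid ratio and 1733 against 2657 for parental mRNA. For parents minus hybrid it gave 552 against 1637 in mRNA and 1019 against 497 in RPF, and for hybrid minus parent 1324 against 2285, 1290 against 829, 724 against 1367 and 944 against 568. With the strains compared alone, 17 members and 1771 of 4544 genes were called in hybrid mRNA. A pseudocount of 1 ppm and median-of-ratios scaling each gave 1 call for parents minus hybrid in RPF.

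The labels do not say that replicate numbers pair mRNA and RPF libraries, and the correlation of their deviations was 0.02 in the hybrid and 0.18 in the parents. The replicate block gave 1 member (RPN4) for parents minus hybrid in RPF and 3 for S. cerevisiae RPF hybrid minus parent, against 0 and 1. Removing the length trend, an alternative chosen after seeing the data, gave 10 members for S. paradoxus mRNA hybrid minus parent, and 24 instead of 64 genes for the hybrid ratio. It turned BLM10 to -0.42 (S. cerevisiae) and -0.31 (S. paradoxus) and ECM29 of S. paradoxus to -0.15. RPF depth and replicate spread limit what can be called for RPF and the ratio.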
